A study of Homo sapiens with 6 samples.

Results

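The autophagy machinery genes described here are 36 human genes that build, lipidate and load the autophagosome. They were chosen by gene name and role and not by a cut on their values, but with earlier results of these data known. All 36 were found by name among the 58735 genes of the deposited tables, and 34 of them passed the filter on low counts, which left 15881 genes in all. The 2 members that did not pass were ULK2 and MAP1LC3A. The members fall into 6 roles: the initiation kinase complex (5 genes), the class III phosphatidylinositol 3-kinase complex (6), lipid supply and phosphoinositide binding (5), the conjugation enzymes with the ATG4 proteases (10), the ATG8 family (5) and cargo receptors (5).

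All libraries came from MDA-MB-231, an established human triple-negative breast cancer cell line, of wild-type genotype, grown in DMEM with serum. Cells were stained with PKH26, a membrane dye that is diluted at each division, and grown for 12 days before sorting. Slow-cycling cells (SCC) were the brightest 1%, labelled as high in dye, and rapid-cycling cells (RCC) had moderate dye by the protocol and low dye by the sample characteristics. Each of the 2 groups had 3 biological replicates, and the series asks how dormant and proliferating cells of the line differ in gene expression. Both groups are sorted fractions of 1 cell line and carry the dye, and no unstained or unsorted library was analysed here.

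Macroautophagy encloses cytoplasm in a double membrane and delivers it to lysosomes. The ULK1 kinase complex starts the process, a lipid kinase complex built on PIK3C3 and BECN1 marks the forming membrane with phosphatidylinositol 3-phosphate, and ATG9A and the ATG2 proteins supply lipid. Enzymes related to the ubiquitin system then attach ATG8 proteins, the LC3 and GABARAP families, to the membrane, where they bind receptors such as SQSTM1 that carry cargo. Much of this machinery is controlled by phosphorylation and protein turnover, so transcript levels do not measure autophagic flux.

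Summed counts ranged from 17655855 to 27831824 per library, the deepest being SCC replicate 1. That library stood apart from its group: compared with SCC replicates 2 and 3, its counts gave a chi-square of 28.0 and 21.0 per degree of freedom, and the remaining 4 pairs of libraries within a group gave 3.31 to 4.30. Over the 34 tested members its deviation followed GC content, as described below, so results are also given without this library. The line's markers VIM, CD44, EGFR, KRT8 and KRT18 summed to 2536 to 2561 in counts-per-million units (CPM) in SCC and 2392 to 2461 in RCC. Of the receptors that define the triple-negative label, ESR1 and PGR reached at most 0.696 and 0.130 CPM, whereas ERBB2 transcript was at 71.3 to 106 CPM. Leukocyte markers (all 5 with counts) summed to at most 3.0 CPM in SCC and 0.951 in RCC, erythroid markers (2 of 2 with counts) to at most 0.0949 and 0.112 CPM, and endothelial markers (3 of 3) to 3.32 to 3.73 and 3.15 to 3.92 CPM. The fibroblast list (3 of 3) summed to 11.7 to 16.2 CPM in SCC and 8.6 to 11.1 in RCC, nearly all of it COL1A1. The part of these markers in the results was not tested.

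Transcripts of 3 members were higher in SCC. They were GABARAPL1 and MAP1LC3B of the ATG8 family and the receptor gene OPTN, with fold changes of 1.57, 1.28 and 1.28. That is 8.82% of the 34 tested members, against 1.69% of all tested genes. A gene was called where its p from edgeR's quasi-likelihood test was under 0.05 after Benjamini-Hochberg adjustment across the 15881 genes. No member was called lower by edgeR, against 0.378% of all tested genes. At that share, 0 called among 34 genes is near the background. DESeq2 and limma also called 0 lower, against 120 of 15668 genes in DESeq2 and at most 36 in a limma fit. In edgeR 0 members were lower at an unadjusted p under 0.05, against 8.27%. At an unadjusted p under 0.05, 9 members (26.5%) were higher, against 11.4% of all tested genes. In bulk RNA, a change in the mix of sorted cells and a change in RNA per cell cannot be told apart.

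The groups did not overlap for 10 members (29.4%), with every SCC library above every RCC library, against 14.4% of all tested genes. For 0 members were all SCC libraries below all RCC libraries, against 13.4%. The log2 fold change of SCC over RCC had a median of 0.11 over the 34 members and 0.00 over all tested genes, and it was above 0 for 22 members and below 0 for 12. Values of single members ran from -0.25 for ATG10 to 0.66 for GABARAPL1, so the differences were small throughout. Without SCC replicate 1, 5 members were called higher, against 3.93% of all genes tested in that fit, and the added ones were SQSTM1 and ATG2A. When each gene's GC content entered the fit as an offset, 4 members were called higher, against 3.45% of all genes, SQSTM1 being the added one. DESeq2 called 5 members higher, against 2.51% of all genes with an adjusted p in that fit. Keeping every gene with at least 1 count in edgeR gave 7 members against 2.65%, and limma on unfiltered log2(FPKM + 1) gave 0 against 0.128%.

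The count of 3 also depended on other single libraries. Without SCC replicate 2, 5 members were called higher, against 3.57% of all genes in that fit. Only GABARAPL1 was called without SCC replicate 3, against 1.09% of all genes, or without RCC replicate 1, against 0.608%. No member was called without RCC replicate 2 or RCC replicate 3, where 0.602% and 0.63% of all genes were called higher.

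**Figure D1:**
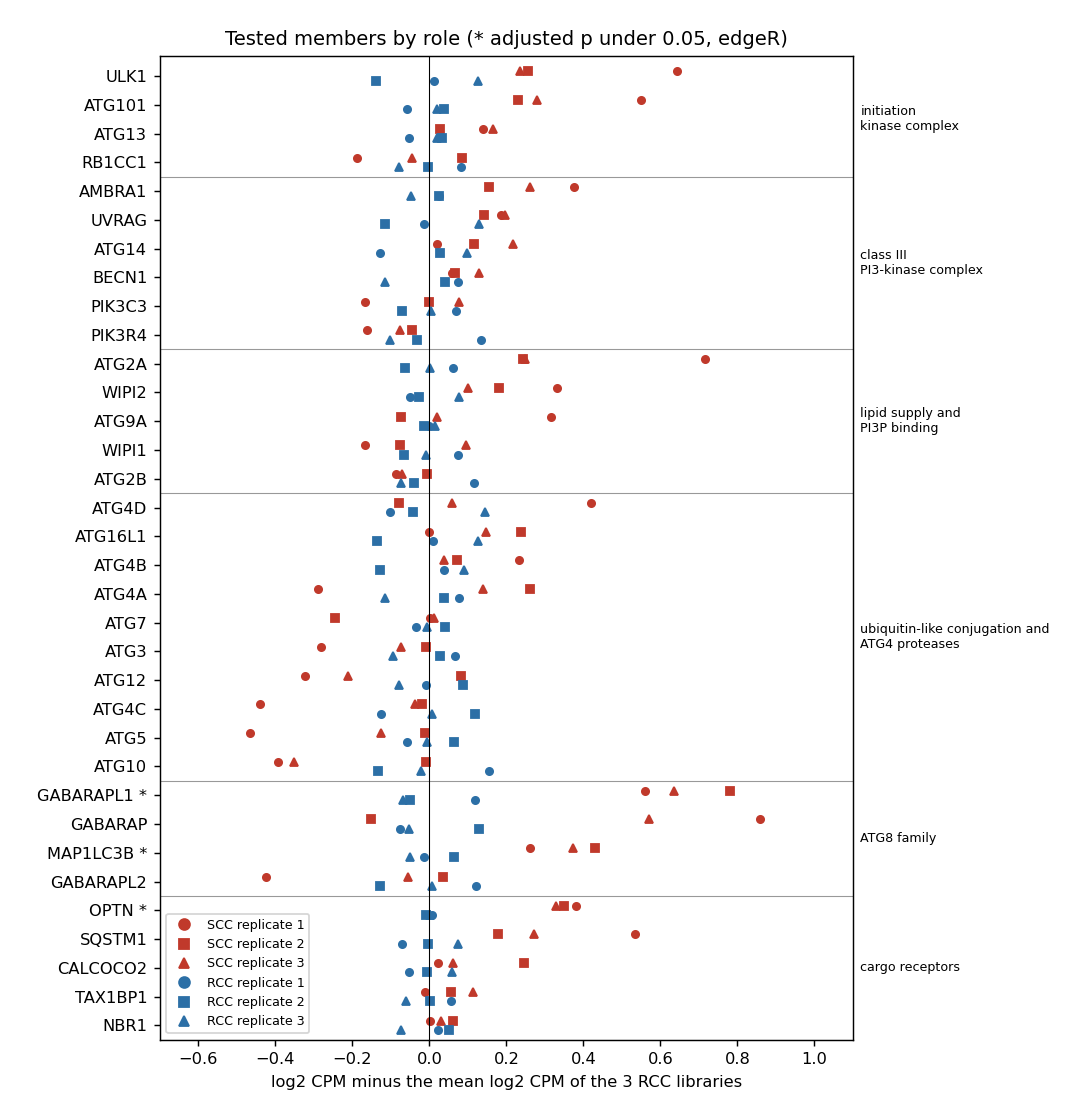
Log2 CPM of each tested member in each library, minus the mean log2 CPM of the 3 RCC libraries, grouped by role; red marks are SCC, blue marks RCC, and the shape gives the replicate. The starred genes GABARAPL1, MAP1LC3B and OPTN had all SCC libraries above all RCC libraries, while in the conjugation group no member had groups that did not overlap. Of all tested genes, 14.4% had all SCC libraries above all RCC libraries and 13.4% had them below.

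GABARAPL1 encodes an ATG8 protein of the GABARAP branch that takes part in autophagosome maturation. The gene (ENSG00000139112) lies on chromosome 12 from 10212458 to 10223130 on GRCh38. Its levels were 17.8, 20.8 and 18.8 CPM in SCC replicates 1 to 3 and 13.1, 11.7 and 11.5 CPM in RCC replicates 1 to 3. All SCC libraries thus lay above all RCC libraries, and SCC replicate 1 was the lowest of its group. The SCC mean was 19.1 ± 1.5 CPM and the RCC mean 12.1 ± 0.89 CPM (SD, n = 3), a log2 fold change of 0.66 with a standard error of 0.11 and an edgeR adjusted p of 0.0115. It was called in 13 of 16 alternative fits, with a log2 fold change between 0.51 and 0.71. It was not called without RCC replicate 2 (edgeR adjusted p 0.0862) or RCC replicate 3 (0.0924), or by limma on unfiltered log2(FPKM + 1) (0.145).

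MAP1LC3B encodes LC3B, the ATG8 protein most used as a marker of autophagosomes. The gene (ENSG00000140941) lies on chromosome 16 from 87383995 to 87404779. Its levels were 87.1, 98.0 and 94.1 CPM in SCC and 71.9, 76.0 and 70.1 CPM in RCC, in replicate order. The lowest SCC library exceeded the highest RCC library. The means were 93.0 ± 5.53 and 72.7 ± 3.02 CPM (SD, n = 3), a log2 fold change of 0.35 with a standard error of 0.074 and an edgeR adjusted p of 0.0364. The fold change stayed between 0.30 and 0.40 on the log2 scale in 16 alternative fits, of which 8 called it. The call was lost without SCC replicate 2 (edgeR adjusted p 0.0557), SCC replicate 3 (0.131) or RCC replicate 1, 2 or 3 (0.218, 0.130 and 0.214). None of the 3 limma fits called it, with adjusted p of 0.0938 on log2(FPKM + 1), 0.0981 on log2(FPKM + 0.1) and 0.244 without a filter.

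The near-identical copy MAP1LC3B2 had 47 to 107 counts per library and was not called (log2 fold change 0.47, edgeR adjusted p 0.245). Reads of the pair may be split between them, so both values are uncertain to that extent. FBXO31, which overlaps 150 exonic bases of MAP1LC3B on the opposite strand, had a log2 fold change of 0.10 (edgeR adjusted p 0.585). The GABARAPL1 copy GABARAPL3 and the antisense gene over GABARAPL1 had 0 counts in all 6 libraries.

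The rest of the ATG8 family did not pass the test. GABARAPL2, also known as GATE-16, was at 23.8, 32.8 and 30.7 CPM in SCC and 34.7, 29.2 and 32.1 CPM in RCC (log2 fold change -0.14, standard error 0.12, edgeR adjusted p 0.526). The groups overlapped, and SCC replicate 1 was the lowest library. GABARAP was at 5.16, 2.56 and 4.22 CPM in SCC and 2.70, 3.11 and 2.74 CPM in RCC (log2 fold change 0.50, standard error 0.25, edgeR adjusted p 0.290). Its SCC libraries spread over a wider range than the whole RCC group and included the lowest value of the 6. Of its exonic bases 55.7% are shared with other annotated genes, AC120057.2 on the same strand and AC120057.3 on the opposite strand, so its level is uncertain. MAP1LC3A, the LC3A gene, was not testable at 0 to 7 counts per library; the 2 libraries at 0 counts, SCC replicate 2 and RCC replicate 2, allow up to 0.154 and 0.143 CPM.

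Per gene length, MAP1LC3B made up the largest share of ATG8 family transcripts in every library. It took 53.0%, 52.0% and 51.4% of the summed family FPKM (fragments scaled by gene length and library size) in SCC and 45.8%, 50.8% and 47.4% in RCC. The share of GABARAPL1 was 13.9% ± 0.52 in SCC against 10.4% ± 0.43 in RCC (SD, n = 3), and that of GABARAPL2 28.4% ± 2.68 and 37.0% ± 2.42. The groups did not overlap for any of these 3 genes, with GABARAPL2 the lower in SCC. GABARAP took 5.31% ± 2.09 and 4.41% ± 0.43, with overlapping groups, and MAP1LC3A 0.250% ± 0.28 and 0.233% ± 0.31. The shares sum to a whole, so they are not separate results, and they were not tested. GABARAP has 55.7% of its exonic bases in common with other genes, so its own share is uncertain. With it, every other share and the lead of MAP1LC3B over GABARAP are uncertain.

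**Figure D2:**
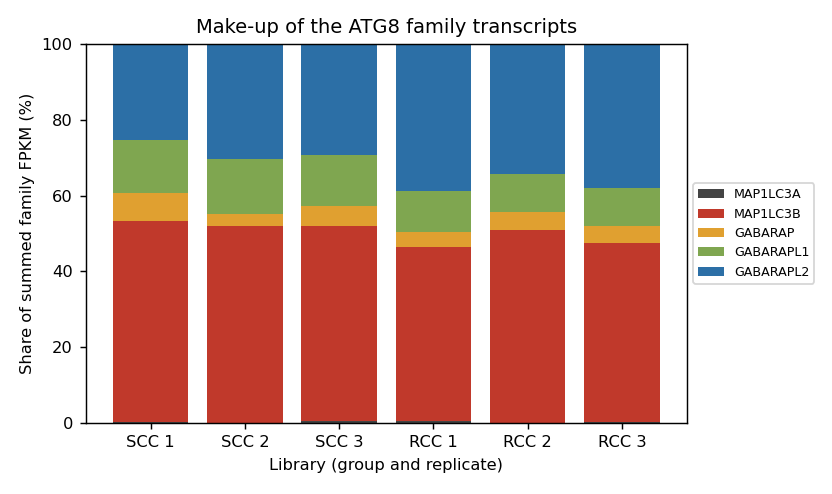
Share of the summed ATG8 family FPKM, in percent, taken by each of the 5 genes in each library. The GABARAPL2 part was 25.4% to 30.5% in SCC and 34.2% to 38.7% in RCC. The GABARAPL1 part was 13.3% to 14.3% in SCC and 10.1% to 10.9% in RCC. GABARAP has 55.7% of its exonic bases in common with other genes, so its level and all shares are uncertain.

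Among the cargo receptors, OPTN was higher in SCC. It encodes optineurin, a ubiquitin-binding receptor known from the clearance of damaged mitochondria and bacteria. The gene (ENSG00000123240) lies on chromosome 10 from 13099449 to 13138308. Its levels were 59.6, 58.3 and 57.5 CPM in SCC and 46.0, 45.4 and 45.8 CPM in RCC. Libraries within each group were nearly equal, and the gap between groups was many times their spread. The means were 58.5 ± 1.07 and 45.7 ± 0.28 CPM (SD, n = 3), a log2 fold change of 0.35 with a standard error of 0.070 and an edgeR adjusted p of 0.0284. OPTN was called in 11 of 16 alternative fits at a log2 fold change of 0.32 to 0.39. It was not called without SCC replicate 3 (edgeR adjusted p 0.103) or RCC replicate 1, 2 or 3 (0.185, 0.161 and 0.152), or by limma on unfiltered log2(FPKM + 1) (0.0737).

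SQSTM1, which encodes the receptor p62, links ubiquitinated cargo to ATG8 proteins and is itself degraded by autophagy. The gene (ENSG00000161011) lies on chromosome 5 from 179806398 to 179838078. It was at 408, 319 and 340.1 CPM in SCC and 268, 281 and 297 CPM in RCC, so the groups did not overlap and SCC replicate 1 was far above the rest. Its log2 fold change of 0.34 (standard error 0.091) missed the threshold at an edgeR adjusted p of 0.0886. Without SCC replicate 1 the log2 fold change was 0.23 (edgeR adjusted p 0.0041), and with the GC offset it was 0.19 (0.0312). It was called in 6 of 16 alternative fits. Its exons share 22.0% of their bases with other genes, mostly MRNIP on the opposite strand, whose own log2 fold change was 0.01 (edgeR adjusted p 0.954).

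The remaining receptors had overlapping groups. NBR1, a receptor related to SQSTM1, was at 159.8, 167 and 163 CPM in SCC and 162, 165 and 152 CPM in RCC. TAX1BP1 was at 89.4, 93.8 and 97.5 CPM in SCC and 93.8, 90.3 and 86.5 CPM in RCC. CALCOCO2, which encodes NDP52, was at 53.6, 62.6 and 55.1 CPM in SCC and 50.9, 52.6 and 54.9 CPM in RCC. Their log2 fold changes were 0.03, 0.05 and 0.11, with standard errors of 0.065, 0.070 and 0.083 and edgeR adjusted p of 0.815, 0.697 and 0.458. The sign for NBR1 turned to -0.01 without RCC replicate 3.

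**Figure D3:**
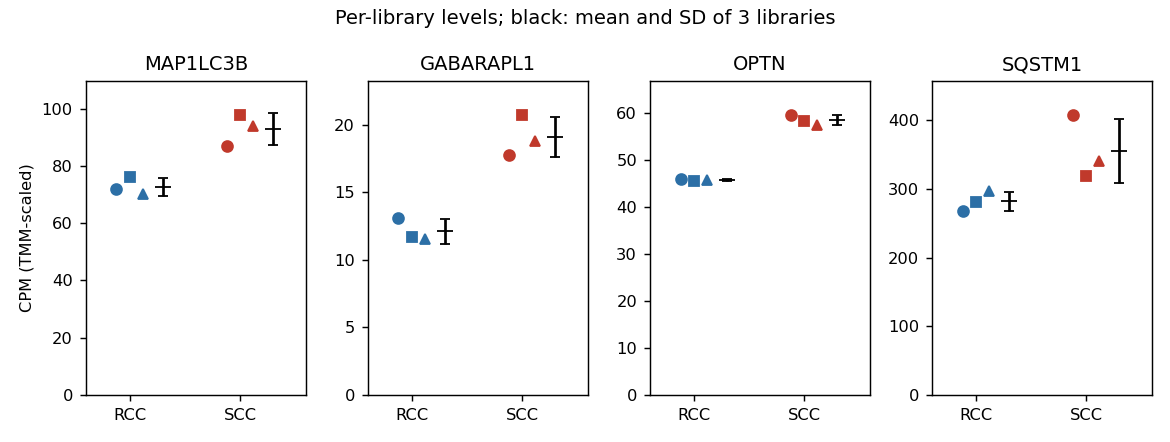
TMM-scaled CPM of MAP1LC3B, GABARAPL1, OPTN and SQSTM1 in each library, by group; the shape gives the replicate as circle, square and triangle for 1 to 3, and black marks give the mean and SD of 3 libraries. Groups did not overlap in any of these genes, and in SQSTM1 the SCC spread came mostly from SCC replicate 1 at 408 CPM.

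The stretches before the start sites of the 3 called genes are shown here because these genes moved in the same direction. Sequences are from RefSeq on GRCh38.p14 and give the 250 bases before the start, on the plus strand for all 3 genes; 32 of the 36 members had an entry. They cover chr16:87392086-87392335 for MAP1LC3B, chr12:10212627-10212876 for GABARAPL1 and chr10:13099832-13100081 for OPTN, the latter being the more upstream of 2 listed starts. These RefSeq starts lie downstream of the gene starts given above, so each stretch falls inside its gene as placed there. Capitals mark matches to any of 4 motifs, searched on both strands.
MAP1LC3B: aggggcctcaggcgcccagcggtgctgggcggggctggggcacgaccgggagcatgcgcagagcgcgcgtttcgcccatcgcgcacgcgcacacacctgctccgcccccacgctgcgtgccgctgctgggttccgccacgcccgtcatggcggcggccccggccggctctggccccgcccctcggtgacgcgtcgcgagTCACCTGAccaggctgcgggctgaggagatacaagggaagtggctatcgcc
GABARAPL1: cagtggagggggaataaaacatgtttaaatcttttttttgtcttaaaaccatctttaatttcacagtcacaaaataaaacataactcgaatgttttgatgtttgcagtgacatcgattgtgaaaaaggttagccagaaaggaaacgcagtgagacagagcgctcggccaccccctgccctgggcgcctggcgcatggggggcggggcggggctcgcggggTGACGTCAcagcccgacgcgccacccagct
OPTN: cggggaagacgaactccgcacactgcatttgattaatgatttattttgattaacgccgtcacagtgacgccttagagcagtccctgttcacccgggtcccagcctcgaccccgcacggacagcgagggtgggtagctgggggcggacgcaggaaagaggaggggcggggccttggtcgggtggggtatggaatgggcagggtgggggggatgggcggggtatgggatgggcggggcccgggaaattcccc

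The motifs were CACGTG, the E-box core read by TFEB and related factors that control lysosome and autophagy genes, TGANTCA, read by AP-1, the factor in the title of the series, TGACGTCA, the cyclic AMP response element, and TCACNTGA, an E-box with a free centre base and defined flanks. The last 2 were added after these sequences had been read. CACGTG, which TCACNTGA can contain, occurs in 6.34% of 35116 promoter stretches in the table, TGANTCA in 6.57%, TGACGTCA in 1.65% and TCACNTGA in 3.20%. GABARAPL1 held TGACGTCA, its left end 30 bases before the start, and was the only matched member to do so. MAP1LC3B held TCACNTGA 51 bases before the start, as did CALCOCO2 in its own stretch. CACGTG was found for ATG3 and ATG14, TGANTCA for 0 of the 32 matched members, and OPTN held none of the 4 in either stretch. A match describes these letters only and was not tested as a binding site.

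In the initiation complex, none of the 4 tested genes passed the adjusted threshold. ATG101, a subunit that stabilises ATG13, was at 36.2, 28.99 and 30.02 CPM in SCC and 23.7, 25.4 and 25.1 CPM in RCC. Its groups did not overlap, and its log2 fold change was 0.36 (standard error 0.10, edgeR adjusted p 0.0982). Of 16 alternative fits, 2 called ATG101: without SCC replicate 2 (0.0467) and with every gene of at least 1 count (0.0266). An antisense gene covers 19.2% of its exonic bases, so its level is uncertain where strand was not used. ULK1, the kinase itself, was at 41.1, 31.4 and 31.0 CPM in SCC and 26.5, 23.9 and 28.7 CPM in RCC, with groups that did not overlap. Its log2 fold change of 0.39 (standard error 0.12, edgeR adjusted p 0.129) was 0.13 with the GC offset and 0.24 without SCC replicate 1. ULK1 was called in 1 of 16 alternative fits, with every gene of at least 1 count (edgeR adjusted p 0.0106).

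The scaffolding subunits were nearly level between groups. ATG13, which had the highest FPKM of the complex as a mean over all 6 libraries although ATG101 was above it in SCC replicates 1 and 2, was at 68.2, 63.1 and 69.4 CPM in SCC and 59.7, 63.4 and 62.8 CPM in RCC (log2 fold change 0.11, edgeR adjusted p 0.407). RB1CC1, which encodes the scaffold FIP200, had a log2 fold change of -0.05 (edgeR adjusted p 0.796). ULK2, the paralog of ULK1, had 0 to 3 counts in every library, and its 2 libraries at 0 counts, SCC replicate 1 and RCC replicate 2, allow up to 0.108 and 0.143 CPM, which covers counting error only.

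In the lipid kinase complex, no gene passed the threshold. AMBRA1, which encodes a regulator of BECN1 and of protein turnover, was at 41.1, 35.2 and 37.9 CPM in SCC and 32.2, 32.2 and 30.6 CPM in RCC. Its groups did not overlap, with a log2 fold change of 0.27 (standard error 0.086, edgeR adjusted p 0.138). UVRAG, a subunit of the endosomal form of the complex, also had groups that did not overlap, with a log2 fold change of 0.17 (edgeR adjusted p 0.295). BECN1, which shares 17.1% of its exonic bases with genes on the opposite strand, was at 70.8, 71.2 and 74.3 CPM in SCC and 71.5, 69.96 and 62.8 CPM in RCC, a log2 fold change of 0.08 (edgeR adjusted p 0.553). The autophagy-specific subunit gene ATG14, the catalytic PIK3C3 and its partner PIK3R4 had log2 fold changes of 0.12, -0.03 and -0.10, with edgeR adjusted p of 0.482, 0.878 and 0.559.

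Of the genes for lipid supply and phosphoinositide binding, ATG2A had the largest fold change. It encodes a lipid transfer protein of the growing membrane and was at 119, 85.9 and 86.3 CPM in SCC and 75.8, 69.6 and 72.7 CPM in RCC. The groups did not overlap, but SCC replicates 2 and 3 lay much closer to RCC than SCC replicate 1. The log2 fold change was 0.42 (standard error 0.12, edgeR adjusted p 0.0982). It was 0.24 and called without SCC replicate 1 (edgeR adjusted p 0.0081), and 0.16 and not called with the GC offset (0.103). In all, 5 of 16 alternative fits called ATG2A. The others were edgeR without SCC replicate 2 (0.035), with replicate number as a block (0.0355) and with every gene of at least 1 count (0.000191), and DESeq2 (0.0239). The paralog ATG2B had a log2 fold change of -0.06 (edgeR adjusted p 0.723); the difference between the paralogs was not tested.

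The phosphoinositide-binding WIPI2, which recruits the ATG16L1 complex, had groups that did not overlap and a log2 fold change of 0.21 (edgeR adjusted p 0.202). WIPI1, with 28.1% of its exonic bases shared with genes on the opposite strand, was at -0.05 (edgeR adjusted p 0.821). ATG9A, the lipid scramblase of ATG9 vesicles, had a log2 fold change of 0.10 (edgeR adjusted p 0.592) that turned to -0.02 without SCC replicate 1. Its exons share 38.8% of their bases with AC068946.2 on the same strand, which had 1 to 6 counts per library, so its level is uncertain.

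The conjugation enzymes and ATG4 proteases contained no gene called by edgeR, 0 at an unadjusted p under 0.05 in either direction, and no gene with groups that did not overlap. Over all tested genes the shares higher and lower were 1.69% and 0.378% called, 11.4% and 8.27% at an unadjusted p under 0.05, and 14.4% and 13.4% with groups that did not overlap. At these shares, 0 called among 10 genes is near the background. The group is too small to read its other counts of 0 as a trait. Their median log2 fold change was -0.10 over 10 genes, 6 of them below 0. ATG5, which is joined to ATG12 to help attach ATG8 proteins, had the smallest p of the group. It was at 33.0, 45.3 and 41.9 CPM in SCC and 43.9, 47.7 and 45.5 CPM in RCC (log2 fold change -0.19, standard error 0.11, edgeR adjusted p 0.351). SCC replicate 1 was far below the other libraries, and without it the log2 fold change was -0.07.

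ATG4D, a protease that trims ATG8 proteins, had the highest level per length in this group, with 14.97% of its exonic bases shared with KRI1 on the opposite strand. It was at 41.8, 29.6 and 32.5 CPM in SCC and 29.1, 30.3 and 34.5 CPM in RCC, and its log2 fold change of 0.15 (edgeR adjusted p 0.521) was -0.01 without SCC replicate 1. The other proteases ATG4A, ATG4B and ATG4C had log2 fold changes of 0.04, 0.12 and -0.16. The E1-like enzyme gene ATG7 (18.1% of exonic bases shared with VGLL4), the E2-like genes ATG3 and ATG10, and ATG12 were at -0.07, -0.12, -0.25 and -0.14, and ATG16L1, which places the conjugation site, was at 0.13. The edgeR adjusted p of these 8 genes lay between 0.414 for ATG10 and 0.889 for ATG4A.

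Levels per gene length spanned a wide range, with the receptor genes SQSTM1 and NBR1 at the top and the other receptor genes OPTN, TAX1BP1 and CALCOCO2 at 10.1, 9.97 and 6.56 FPKM. SQSTM1 led at 41.4 ± 6.4 FPKM over all 6 libraries (SD, n = 6), ahead of NBR1 at 19.1 ± 0.68, MAP1LC3B at 15.5 ± 2.21 and ATG4D at 14.4 ± 2.01. The ranges of SQSTM1 (34.8 to 52.5 FPKM) and NBR1 (18.0 to 19.7) did not meet, whereas those of NBR1 and MAP1LC3B (13.1 to 18.4) did, as did those of MAP1LC3B and ATG4D (12.7 to 18.1). From BECN1 at 10.9 FPKM down to ATG7 at 3.36, the ranges of neighbours in the order overlapped. ATG2B, PIK3C3 and GABARAP followed at 2.24, 2.06 and 1.5 FPKM, again with overlapping ranges, and ATG10, an E2-like enzyme gene, was at 0.930. MAP1LC3A and ULK2 were at most at 0.188 and 0.0170 FPKM. GABARAPL1, the member with the largest fold change, was only 28th of 36 by level, at 3.8 FPKM.

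**Figure D4:**
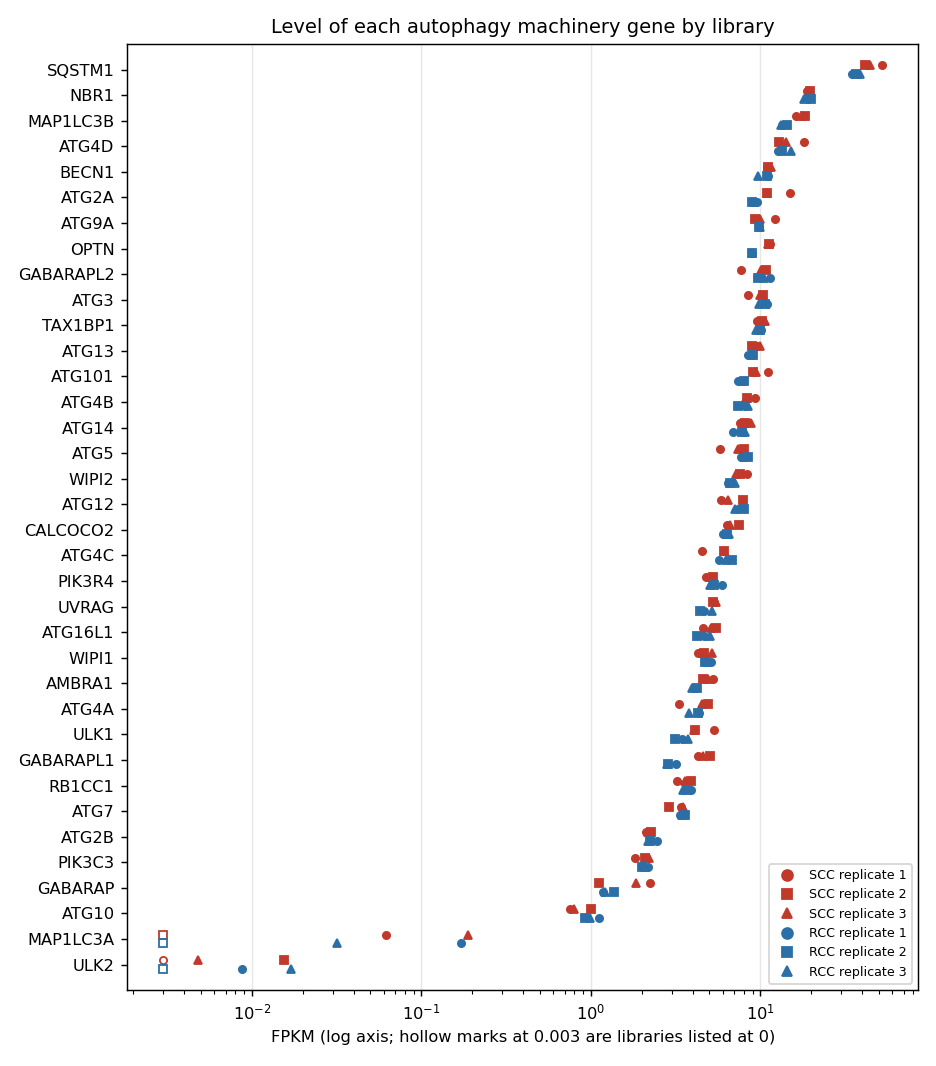
FPKM of each member in each library on a log axis, ordered by mean; red marks are SCC, blue marks RCC, shapes give the replicate, and hollow marks at the left are libraries listed at 0. SQSTM1 lies between 34.8 and 52.5 FPKM, most members between 2 and 20 FPKM, and ULK2 and MAP1LC3A far below the rest.

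Fold changes of the members moved with the GC content of their transcripts. Across the 34 tested members the log2 fold change correlated with GC content at Pearson r = 0.63 and Spearman rho = 0.73, a description across genes that share the same 6 libraries. The log2 gap of SCC replicate 1 from the mean of SCC replicates 2 and 3 correlated with GC content at r = 0.82. Of the 8 members above 55% GC, all 8 had a log2 fold change above 0, with a median of 0.30, against 14 of 26 and a median of 0.04 for the rest. Without SCC replicate 1 the medians were 0.22 and 0.06 and r was 0.34, and with the GC offset they were 0.15 and 0.09 and r was 0.12. The offset was fitted to GC content in these libraries, so it takes out any difference that follows GC content, and r falls by construction. With the offset, 5 of the 8 GC-rich members remained above 0; ATG9A, ATG4B and ATG4D were below.

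The 3 called genes had GC contents of 46.6% (OPTN), 50.3% (MAP1LC3B) and 50.8% (GABARAPL1). Their log2 fold changes with the GC offset were 0.39, 0.35 and 0.64, and leaving out SCC replicate 1 gave 0.34, 0.40 and 0.70. All 3 were called in both of these fits. Of the 328 genes called by edgeR over all 6 libraries, 313 were also called with the GC offset. Without SCC replicate 1, 324 of them were called. Staying called is thus near the background for called genes and does not set these 3 apart. ULK1, ATG2A, ATG101 and SQSTM1, at 64.1%, 63.8%, 59.4% and 58.8% GC, had smaller log2 fold changes in both fits. The part of GC content in those 4 differences was not tested beyond these fits.

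**Figure D5:**
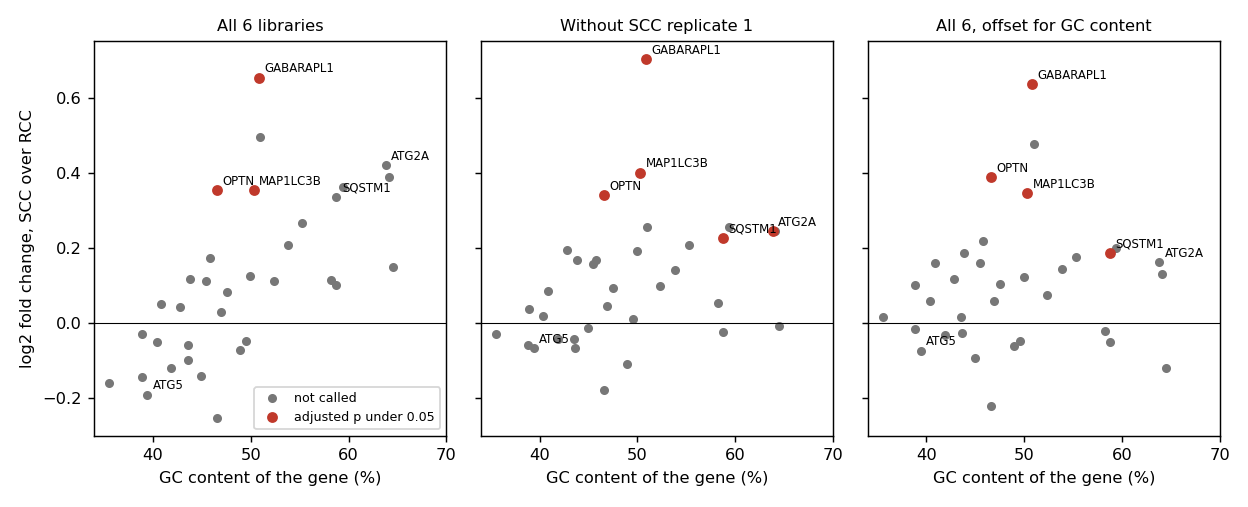
Log2 fold change of SCC over RCC against the GC content of each tested member's transcripts in percent, for all 6 libraries, without SCC replicate 1, and with an offset for GC content; red marks have an adjusted p under 0.05. The correlation across members is 0.63 at left and 0.34 and 0.12 in the other panels, while GABARAPL1, MAP1LC3B and OPTN stay at 0.34 or above.

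Other genes of the pathway, 57 in all, were examined beside the members. Of the 55 tested, 0 were called in either direction by edgeR, against 1.69% of all tested genes higher and 0.378% lower. At these shares, 0 called among 55 genes is near the background. An unadjusted p under 0.05 was reached by 11 that were higher (20%, against 11.4% of all tested genes) and 4 that were lower (7.27%, against 8.27%). DESeq2 called 1 gene, TOLLIP, higher, against 2.51% of all genes. The median log2 fold change of the 55 genes was 0.04. Without SCC replicate 1, 3 were called higher (FKBP8, TOLLIP and VPS11), against 3.93% of all genes in that fit. It called 2 lower (ATG16L2 and VMP1), against 343 of 16324 genes. Without SCC replicate 2, 4 were called higher, against 3.57%, and 1 lower, against 261 of 16402 genes.

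The gene with the smallest p in each group of that list was as follows. TOLLIP, a ubiquitin-binding receptor, was at 80.0, 63.8 and 69.6 CPM in SCC and 52.3, 55.5 and 57.1 CPM in RCC, with a log2 fold change of 0.37 (edgeR adjusted p 0.067). PRKAG2, a regulatory subunit of the energy sensor AMPK, was at 32.3, 38.2 and 39.4 CPM in SCC and 46.7, 46.5 and 43.8 CPM in RCC, a log2 fold change of -0.32 (0.102). VPS11, a core subunit of the tethering complexes for fusion with lysosomes, was at 51.8, 51.3 and 50.1 CPM in SCC and 41.6, 44.0 and 43.0 CPM in RCC, a log2 fold change of 0.25 (0.103). WDR45, a phosphoinositide-binding relative of the WIPI genes, had a log2 fold change of 0.37 (0.107), and TFE3, a transcription factor for lysosome and autophagy genes, 0.23 (0.251). In all 5 genes the groups did not overlap, and none passed the threshold. The 5 were picked by their p, so the lack of overlap follows largely from that choice. Over all tested genes, 14.4% had every SCC library above every RCC library and 13.4% had them below. TFEB itself had a log2 fold change of 0.25 (0.469) at a mean of 4.97 CPM in SCC and 4.21 CPM in RCC.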

How the data were processed

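Total RNA was extracted with TRIzol and made into libraries with an NEBNext Ultra kit, per the labels' protocols. HISAT2 2.0.5 and featureCounts 1.5.0-p3 are named in the submitters' processing notes; the build, read filters and use of strand are not given in the sources used here. The authors deposited whole-number counts per gene, and deposited FPKM values that follow from count and gene length with a single scale for each library (0.983 to 1.02 times its summed count). All 58735 gene IDs and positions match GENCODE release 29 on GRCh38. If reads in overlapping exons were dropped or strand was ignored, overlapping genes are under- or over-counted.

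Counts were filtered with filterByExpr (minimum count 10), scaled by TMM and tested on group alone with edgeR 4.0.16 (glmQLFit, two-sided, Benjamini-Hochberg over all tested genes, threshold 0.05) in R 4.3.3. The fit was also run on simulated counts with a fixed spread. They held no GC trend and no deviating library, so that run does not cover the shift of SCC replicate 1. CPM use TMM-scaled totals; for libraries at 0 counts the limit is 3 counts of the summed total. Alternatives were DESeq2 1.42.0, limma 3.58.1 on log2(FPKM + 1) and log2(FPKM + 0.1) at FPKM of at least 1 in 3 libraries or on all genes with a value, RLE and upper-quartile scaling, no count filter, a replicate block, a lowess offset (span 0.3) for transcript GC content, and each library left out. The members, lists, tests and alternatives were chosen with earlier results of these data known. Genes named with values per library were those called, the smallest p and highest FPKM of each role, all ATG8 genes and receptors, and for other pathway genes the smallest p of each group; ULK1, TFEB, MAP1LC3B2 and overlapping genes were added after their values were seen, as were the GC comparisons over members. Replicates are called biological in the labels; whether they are separate cultures is not stated, so p-values measure the spread between these libraries.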

Additional observations from a re-analysis of the deposited data

How the results depend on the processing

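Of 542 fold changes of members under the alternatives, 489 kept their direction and side of the threshold, 16 lost it, 14 gained it and 23 changed sign. Against 3 members called higher, DESeq2 gave 5, every gene with at least 1 count 7, and unfiltered limma on log2(FPKM + 1) 0. Fits that each left out a library gave 0 (without RCC replicate 2 or 3) to 5. At an unadjusted p under 0.05 they gave 0 to 3 members lower, the 3 without SCC replicate 2. The share of all genes lower by that rule was computed only with all 6 libraries, at 8.27%. The 3 thus have no background from their own fit. Causes were not tested.

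Other pathway genes called higher and lower numbered 0 and 0, against 1 and 0 with DESeq2, 6 and 2 with every gene, 1 and 3 with the GC offset, and 0 to 4 and 0 to 2 with a library left out. All genes called higher and lower numbered 268 and 60 (81.7% higher), against 995 and 315 with every gene, 548 and 295 (65.0% higher) with the GC offset, 130 and 36 with limma on log2(FPKM + 1), 117 and 34 on log2(FPKM + 0.1), 48 and 1 without a filter, and 99 to 642 and 8 to 343 with a library left out. DESeq2 gave 393 and 120.

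Deviations of same-numbered libraries from their group means correlated at r of -0.01, 0.02 and -0.08. So few libraries cannot show whether a shared number marks a shared batch, and the labels do not say. The replicate block gave 4 members higher (ATG2A added) and, over all genes, 350 higher and 106 lower. The block with the GC offset gave 2 and 4 other pathway genes and 701 and 545 genes (56.3% higher).

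Log2 fold changes that changed sign, none of them called, were those of RB1CC1 (0.0597 with the GC offset, 0.0611 with block and GC offset, -0.132 to 0.0174 with a library left out), PIK3C3 (0.10, 0.10 and -0.0941 to 0.0382), ATG9A (-0.0514, -0.0524 and -0.0245 to 0.163) and ATG4D (-0.12, -0.12 and -0.0079 to 0.236). With the GC offset and with the block and GC offset, they were those of ATG2B (0.0149 and 0.0163), ATG4B (-0.0206 and -0.0202) and ATG4C (0.0174 and 0.0176). With a library left out, they were those of WIPI1 (-0.133 to 0.012), ATG4A (-0.0847 to 0.195) and NBR1 (-0.0135 to 0.0513).

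Computed from counts, family shares in SCC and RCC were 64.0% and 60.7% for MAP1LC3B, 2.79% and 2.38% for GABARAP and 19.9% and 26.7% for GABARAPL2, with 13.2% for GABARAPL1 in SCC. Without GABARAP, chosen after seeing the data, MAP1LC3B took 55.1% in SCC and GABARAPL1 14.7% and 10.9%. Leaving GABARAP out does not show what the shares would be if it was undercounted.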

Other observations

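Receptors for selected organelles, which mark mitochondria or endoplasmic reticulum for autophagy, contained no gene called by edgeR. Over all tested genes 1.69% were called higher and 0.378% lower, so 0 called among 13 genes is near the background. Of 13 tested, 3 were higher at an unadjusted p under 0.05 (23.1%, against 11.4% of all tested genes) and 0 lower (against 8.27%). The group is too small to read that 0 as a trait. Their log2 fold changes ran from -0.27 to 0.55 with a median of 0.07. PINK1, the kinase that marks damaged mitochondria for receptors such as OPTN, was at 19.1, 10.7 and 13.8 CPM in SCC and 9.39, 10.8 and 9.79 CPM in RCC. Its groups overlapped, SCC replicate 1 was the highest, and its log2 fold change of 0.55 had an edgeR adjusted p of 0.154. PINK1 was called higher with every gene of at least 1 count, with the block and GC offset, and without SCC replicate 2. The other fits did not call it. Of its exonic bases 41.7% are shared, mostly with PINK1-AS on the opposite strand, so its level is uncertain. Every SCC library was above every RCC library for 3 of the 13 genes (23.1%, against 14.4% of all tested genes). For 1 gene every SCC library was below (7.69%, against 13.4%). Those above included FKBP8, a mitochondrial receptor, and RETREG1, a receptor for endoplasmic reticulum. Their log2 fold changes were 0.34 and 0.37 (edgeR adjusted p 0.138 and 0.267). The gene below was SEC62, with a log2 fold change of -0.15 (0.284). FUNDC1, a mitochondrial receptor, had the lowest value at -0.27 (0.295). BNIP3 and BNIP3L, mitochondrial receptors that also respond to low oxygen, were at 0.07 and 0.06 (0.637 and 0.729), and NCOA4, the ferritin receptor, at 0.01 (0.946).

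Among the 55 tested genes of the wider pathway, 11 (20%) had every SCC library above every RCC library, against 14.4% of all tested genes, and 8 (14.5%) had every SCC library below, against 13.4%. The second share is near the background. The AMPK catalytic subunit gene PRKAA1 was among these 8, with a log2 fold change of -0.24 (edgeR adjusted p 0.191), as was the membrane factor gene VMP1 at -0.28 (0.129).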
